A study of Mus musculus with 6 samples.

Results

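Promoters of long intergenic noncoding RNA (lincRNA) genes were examined for open chromatin in mouse intestinal crypts. The members were the gene starts annotated as lincRNA in GENCODE M21 on chromosomes 1 to 19 of GRCm38 that lay more than 2 kb from every protein-coding transcript start. Of 51229 annotated genes, 5209 were lincRNA genes and 4731 of these passed the distance rule. Each promoter was a window from 1000 bp upstream to 100 bp downstream of the gene start, the transcription start site (TSS), and it was called open in a sample when the summit of an ATAC-seq peak fell inside it. The rule used annotation alone and no measured value.

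ATAC-seq maps accessible chromatin through the cuts of a transposase, and its peaks are stretches with more fragments than the local background. The 6 samples came from crypts of the proximal jejunum, dissociated to single cells, of wild-type (WT) and Arid3a conditional knockout (cKO) mice, with 3 samples of each genotype. The cKO animals were VillinCre-ERT2+/-; Arid3a fl/fl, in which tamoxifen removes Arid3a, a factor that binds A+T-rich DNA. Animals of both genotypes had tamoxifen on 3 consecutive days, with collection 1 month after the first dose. The Villin driver acts in epithelial cells, so other cells of the mucosa kept the gene, and the alleles carried by the WT animals are not given in the sources used here. The comparison asked how loss of Arid3a altered chromatin accessibility. No source says whether any animal gave more than 1 sample.

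Long noncoding RNAs are transcripts that are not translated, and many are made by RNA polymerase II from promoters with the same core machinery as coding genes. Some act in the nucleus, some host small RNAs, and for others the act of transcription or the promoter element itself is thought to matter for a neighbouring gene. Their promoters are on average poorer in CpG dinucleotides than coding promoters and are often open in few tissues.

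Sequences at 10 of the promoters are given first, because they show the kinds of element behind the values. Each run is the 201 bases centred on the median summit, read from GRCm38.p6 on the strand of the gene. Capitals mark matches on either strand to 1 of 12 consensus sites listed further on. A match is a description of the letters and says nothing of binding.

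The first 4 belong to RNAs known by name and were open in all 6 samples. Malat1 lies at chr19:5803448-5803648, 2900097C17Rik at chr2:156392802-156393002, Snhg6 at chr1:9944040-9944240 and Pvt1 at chr15:62037922-62038122. They held 19, 22, 23 and 24 CpG dinucleotides. The capitals are KLF and SP1 sites in Malat1, a KLF site in 2900097C17Rik, ETS and SP1 sites in Snhg6, and CRE and KLF sites in Pvt1.
Malat1: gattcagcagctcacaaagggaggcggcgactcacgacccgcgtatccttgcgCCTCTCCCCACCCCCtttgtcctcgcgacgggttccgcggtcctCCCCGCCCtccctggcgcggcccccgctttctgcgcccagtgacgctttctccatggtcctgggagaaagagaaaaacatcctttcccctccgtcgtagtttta
2900097C17Rik: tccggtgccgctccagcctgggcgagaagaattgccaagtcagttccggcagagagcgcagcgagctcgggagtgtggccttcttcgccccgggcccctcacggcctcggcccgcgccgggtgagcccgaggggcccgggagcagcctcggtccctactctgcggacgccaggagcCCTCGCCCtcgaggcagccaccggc
Snhg6: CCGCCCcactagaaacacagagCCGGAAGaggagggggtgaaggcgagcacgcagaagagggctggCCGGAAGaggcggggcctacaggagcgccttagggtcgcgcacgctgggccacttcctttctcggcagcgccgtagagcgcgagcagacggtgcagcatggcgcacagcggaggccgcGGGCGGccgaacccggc
Pvt1: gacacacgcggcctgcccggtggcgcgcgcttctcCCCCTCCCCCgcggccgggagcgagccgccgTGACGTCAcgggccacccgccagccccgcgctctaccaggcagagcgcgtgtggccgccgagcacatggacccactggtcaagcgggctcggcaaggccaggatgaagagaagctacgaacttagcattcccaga

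The next 4 ranked higher by fold, the measure of peak strength used further on, in one genotype than in the other without overlap. Gm5493 (chr17:22739659-22739859) and 1700003M07Rik (chr4:129960011-129960211) ranked higher in cKO, and Gm45866 (chr8:123754150-123754350) and Gm16046 (chr17:13683847-13684047) ranked higher in WT. They held 13, 7, 5 and 7 CpG dinucleotides. The capitals are a KLF site in Gm5493, NFY and KLF sites in 1700003M07Rik, ARID3, SP1 and ETS sites in Gm45866, and AP-1, SP1 and KLF sites in Gm16046.
Gm5493: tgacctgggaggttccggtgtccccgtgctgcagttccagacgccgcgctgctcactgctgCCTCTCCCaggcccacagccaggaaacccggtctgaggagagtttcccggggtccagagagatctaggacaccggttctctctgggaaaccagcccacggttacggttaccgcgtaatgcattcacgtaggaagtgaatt
1700003M07Rik: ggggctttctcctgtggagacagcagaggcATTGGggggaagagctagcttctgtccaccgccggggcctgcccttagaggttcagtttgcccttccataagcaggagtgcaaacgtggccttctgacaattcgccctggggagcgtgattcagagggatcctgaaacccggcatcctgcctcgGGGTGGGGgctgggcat
Gm45866: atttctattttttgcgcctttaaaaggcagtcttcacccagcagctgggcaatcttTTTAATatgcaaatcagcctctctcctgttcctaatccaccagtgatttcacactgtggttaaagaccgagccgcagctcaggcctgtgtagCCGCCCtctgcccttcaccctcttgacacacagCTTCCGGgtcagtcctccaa
Gm16046: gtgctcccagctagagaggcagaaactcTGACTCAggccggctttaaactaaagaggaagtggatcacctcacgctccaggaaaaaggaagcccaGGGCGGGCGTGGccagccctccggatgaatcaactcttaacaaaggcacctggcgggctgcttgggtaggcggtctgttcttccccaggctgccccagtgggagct

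The last pair was open in 3 of 3 WT and 0 of 3 cKO samples. B530045E10Rik lies at chr10:99298567-99298767 and 1810008I18Rik at chr7:65802397-65802597, and they held 2 and 4 CpG dinucleotides. The capitals are joined GATA and ARID3 sites in the former, and ARID3, AP-1 and NFY sites in the latter.
B530045E10Rik: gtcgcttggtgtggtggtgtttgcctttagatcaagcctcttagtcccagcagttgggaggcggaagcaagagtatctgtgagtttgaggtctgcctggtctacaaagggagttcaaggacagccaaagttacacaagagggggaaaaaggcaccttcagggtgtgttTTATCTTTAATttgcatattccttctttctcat
1810008I18Rik: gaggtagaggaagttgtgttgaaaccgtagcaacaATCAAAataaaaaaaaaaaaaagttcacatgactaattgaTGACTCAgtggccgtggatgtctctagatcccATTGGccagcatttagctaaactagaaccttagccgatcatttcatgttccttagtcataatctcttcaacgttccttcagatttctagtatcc

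The lists held 39773 to 57140 peaks on these chromosomes, fewest in WT 1 and most in cKO 1, and read totals were not used here. The intestinal identity of the samples was checked at promoters of marker genes, with any annotated start counted. Of 15 epithelial markers, the WT samples had 12, 12 and 14 open and the cKO samples 12, 12 and 11. Olfm4 and Axin2, which are stem cell genes, were among 9 open in all 6, and Cdx1 was open in 0. Of 15 leukocyte markers, 1 to 2 were open in WT and 2 in each cKO sample. Lck was open in all 6, and 13 were open in 0, Ptprc and Cd3e among them. Of 15 mesenchymal and endothelial markers, 3 to 4 were open in WT and 3 to 5 in cKO samples. Col1a1 and Pdgfra were open in all 6, and 9 were open in 0, with Pecam1, Col3a1 and Dcn among them. Fewer cells of a type and less open chromatin per cell cannot be told apart in these bulk samples. The Arid3a promoter was open in all 6 samples, so the targeted gene did not check the labels.

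Few lincRNA promoters were open in crypts. WT 1, 2 and 3 had 349, 404 and 428 open and cKO 1, 2 and 3 had 420, 373 and 398. WT 1 was lowest and also had the shortest list. The mean share was 8.32% ± 0.856 in WT and 8.39% ± 0.497 in cKO (SD, n = 3 per genotype). An exact permutation test, two-sided, gave p = 1. The smallest p that 3 samples against 3 allow is 0.1. The share of lincRNA promoters that were open thus did not differ beyond the spread between samples, and the sign of the difference turned without WT 1, to −0.402 percentage points, without cKO 1, to −0.173, and with lists of equal length, to −0.296.

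List length was allowed for by counting summits in these windows per 1000 peaks. There were 8.77, 8.12 and 7.91 in WT 1, 2 and 3, against 7.28, 8.17 and 7.83 in cKO 1, 2 and 3. The mean was 8.27 ± 0.453 in WT and 7.76 ± 0.447 in cKO (SD, n = 3, exact permutation p = 0.3), and the samples overlapped.

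Peak strength was expressed as a rank, because folds come from separate runs of the caller. The within-list percentile is the percentage of a sample's own peaks with a fold at or below that of the peak, so 50 is the middle of the list. For open lincRNA promoters its median in WT 1, 2 and 3 was 51.7, 59.6 and 58.0, against 56.6, 57.5 and 55.7 for cKO 1, 2 and 3. The means were 56.4 ± 4.15 and 56.6 ± 0.925 (SD, n = 3, exact permutation p = 1). Open lincRNA promoters therefore sat near the middle of the lists in both genotypes, and the sign of the difference turned without WT 1, to −2.19, and without cKO 2, to −0.298.

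**Figure D1:**
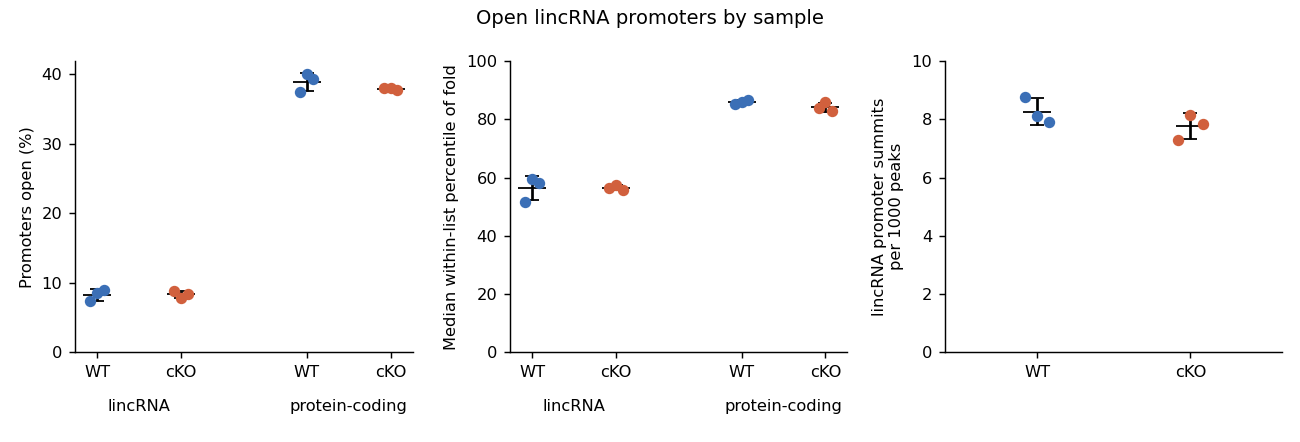
Share of promoters open (left), median within-list percentile of fold of open promoters (middle) and lincRNA promoter summits per 1000 peaks (right), with 1 point per sample, the mean as a bar and ± SD as whiskers (n = 3, WT in blue, cKO in orange). The WT and cKO points overlap in all 3 lincRNA measures, and lincRNA promoters lie below protein-coding ones in every sample.

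Protein-coding promoters under the same window, but with no distance rule applied to them, were open far more often and ranked higher. Their open share averaged 38.4% ± 0.998 over the 6 samples against 8.36% ± 0.627 for lincRNA promoters, a within-sample difference of 30.1 percentage points. Their median percentile averaged 85.1 ± 1.42 against 56.5 ± 2.69, a difference of 28.5. Both differences had the same direction in 6 of 6 samples, and an exact two-sided sign-flip permutation test over samples gave p = 0.0312, the smallest that 6 samples allow. Open lincRNA promoters also had narrower peaks, with a median width of 672 to 819 bp per sample against 1064 to 1197 bp.

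The coding share depends on where the gene start is drawn. With every annotated transcript start counted, 55.4% of coding and 9.40% of lincRNA promoters were open, so the gap widened to 46.0 percentage points. Any overlap of a peak with the window gave 58.1% and 11.8%.

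Summits gathered at the annotated lincRNA starts. In bins of 500 bp, the share of lincRNA genes with a summit was 5.38% ± 0.376 just upstream of the start and 4.30% ± 0.474 just downstream (SD, n = 6). The 9 bins of the same size farther upstream held 1.33% to 1.64%. Coding genes had 21.5% ± 0.764 and 32.3% ± 1.43 in the same central bins. Beside the start, coding genes thus had a summit more often downstream, and lincRNA genes somewhat more often upstream. In the next bins out, lincRNA genes had 1.46% upstream and 2.20% downstream. The promoter window ends 100 bp downstream, so it holds mostly upstream positions. Within it, the median summit lay from −130 to −165.5 bp relative to the start at lincRNA genes, against −27 to −36 bp at coding genes.

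**Figure D2:**
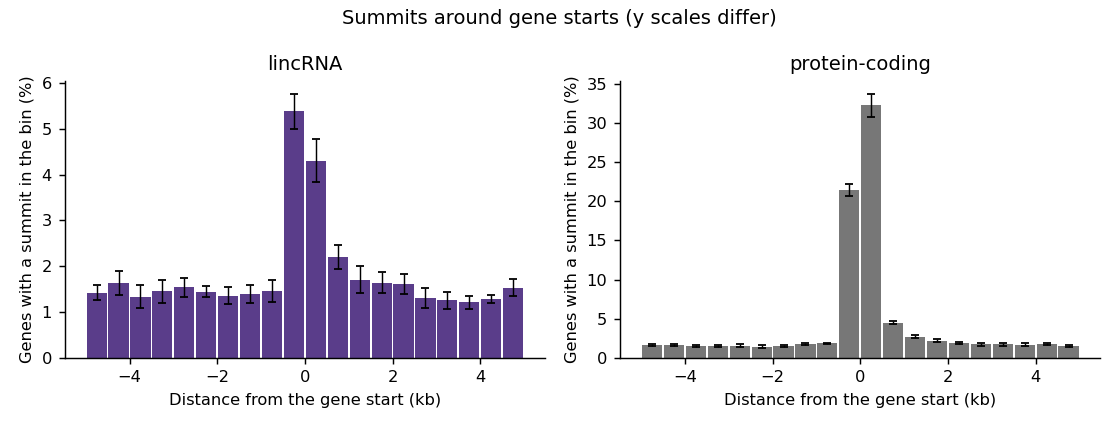
Percentage of lincRNA genes (left, 4731) and protein-coding genes (right, 20807) with at least 1 summit in each 500 bp bin from 5 kb upstream to 5 kb downstream of the gene start. Bars are means and whiskers SD over the 6 samples. Both classes peak in the bins beside the start, at 5.38% and 4.30% for lincRNA genes, over 1.33% to 1.64% in the 9 bins farther upstream.

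Across the 6 samples, 239 of the 4731 lincRNA promoters (5.05%) were open in all 6, 353 (7.46%) in 1 to 5, and 4139 (87.5%) in none. The 592 open at least once included 116 open in a single sample. Of coding promoters, 5556 of 20807 (26.7%) were open in all 6. The promoters open in all 6 samples ranked higher, with a median of the mean percentile of 67.3, against 28.6 for those open in 1 to 5. Peak strength and the number of samples are linked through the peak call itself, so this order is a description. The overlap of open members between 2 samples (shared members over the union) averaged 0.668 within a genotype and 0.670 between genotypes.

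Sequence composition went with openness. A window was called CpG-rich when G and C made up over 50% and CpG occurred at over 0.6 of the number expected from its base composition. Only 67 of the 4731 lincRNA windows met this, and 30 of them (44.8%) were open in all 6 samples, against 4.48% of the other 4664. CpG-rich windows made up 12.6% of the lincRNA promoters open in all 6, 5.67% of those open in 1 to 5 and 0.411% of those open in none. Of coding promoters open in all 6 samples, 48.8% were CpG-rich. Within the lincRNA promoters open in all 6, the median of the mean percentile was 81.9 for the 30 CpG-rich windows and 66.3 for the other 209. These are descriptions over promoters, which are not replicates.

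Repeats showed the reverse. Repeat-masked bases filled over 50% of 514 windows, and 3 of these (0.584%) were open in all 6 samples against 5.60% of the other 4217. Reads from repeats map less uniquely, and the part of mapping in this difference was not tested.

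Openness also varied with the distance to the nearest coding gene. The share open in all 6 samples was 6.19% at 2 to 5 kb, 7.77% at 5 to 10 kb, 8.87% at 10 to 20 kb and 7.21% at 20 to 50 kb. It was 4.83% at 50 to 100 kb, 2.62% at 100 to 500 kb and 0.685% beyond 500 kb, where 2 of 292 promoters were open in all 6. Openness was therefore not highest next to coding starts but fell steadily beyond 20 kb. Neighbour promoters were called with any annotated start counted. The nearest coding gene was open in all 6 samples for 59.8% of the 239 members open in all 6. For the 353 open in 1 to 5 it was 55.2%, and for the 4139 open in none 46.7%. The share with a neighbour open in 0 samples did not follow this order, at 21.8%, 15.6% and 30.5%. The number of exons made little difference, with 5.03% of multi-exon and 5.41% of single-exon genes open in all 6.

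**Figure D3:**
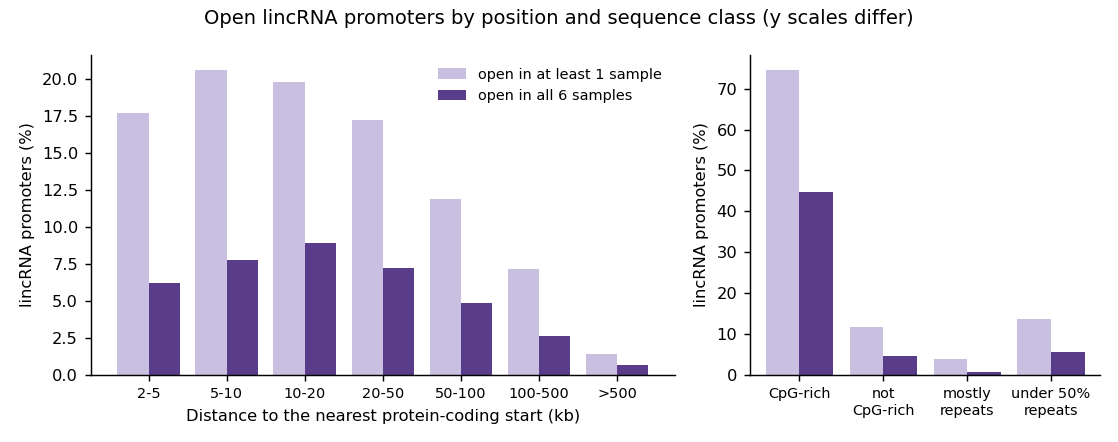
Percentage of lincRNA promoters open in at least 1 sample (light bars) and in all 6 samples (dark bars), by distance to the nearest protein-coding start (left, kb) and by CpG and repeat content of the window (right). The all-sample share is largest at 10 to 20 kb, at 8.87%, and is 44.8% in CpG-rich windows against 4.48% in the others.

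Motif shares at the summits set open lincRNA promoters between coding promoters and distal peaks. The share was the percentage of open promoters with a consensus site within 100 bp of the summit, on either strand and with no mismatch. The sites were AP-1 (TGACTCA), HNF4 (CAAAGTCCA or CAAAGTTCA), ARID3 (ATCAAA or else ATTAAA), CDX (TTTATNG), the GATA factors (AGATAA), KLF (CCNCNCCC), CTCF, ETS (CCGGAAG), NFY (CCAAT), CRE (TGACGTCA), NRF1 (GCGCATGCG) and SP1 (GGGCGG). KLF and SP1 letters can overlap, and the longer, degenerate CTCF consensus is given by name alone.

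Sites of factors that act at distal elements were more frequent at lincRNA than at coding promoters. AP-1 sites, bound by Fos and Jun dimers, were at 8.37% ± 1.31 of open lincRNA and 2.01% ± 0.114 of open coding promoters (SD, n = 6). CTCF sites, bound by the factor that anchors chromatin loops, were at 3.17% ± 0.575 and 0.624% ± 0.0516. Sites of the intestinal regulators followed the same order, with GATA at 8.94% and 2.39%, CDX at 8.86% and 3.63%, and HNF4 at 1.65% and 0.629%. The A+T-rich ARID3 site was at 14.9% ± 0.835 and 5.18% ± 0.248.

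GC-rich promoter sites had the opposite order. SP1 sites were at 23.8% ± 1.29 of open lincRNA and 60.3% ± 0.880 of open coding promoters, and KLF sites at 38.2% and 58.6%. ETS sites were at 6.81% and 16.3%, NFY sites at 24.5% and 30.7%, CRE sites at 0.967% and 3.15%, and NRF1 sites at 0.326% and 2.81%. All 12 differences had the same direction in 6 of 6 samples, each with an exact sign-flip permutation p of 0.0312 and the same value after Benjamini-Hochberg adjustment over the 12 motifs. GC content within 100 bp of the summit was 54.5% to 55.5% at lincRNA and 64.6% to 65.2% at coding promoters (exact permutation p = 0.0312), and its part in the motif shares was not tested. The sequence is the same in every sample, and 239 lincRNA and 5556 coding promoters were open in all 6. The samples thus largely repeated the same promoters, and these p-values do not measure the spread between promoters.

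Peaks more than 2 kb from every annotated start, 60.1% of a list on average, completed the order. Their GC content was 49.4% ± 0.373 and their median percentile 41.1 ± 1.39 (SD, n = 6). They held AP-1 sites at 10.5% ± 0.706, GATA sites at 16.3% ± 0.479, ARID3 sites at 19.3% ± 0.948 and SP1 sites at 8.54% ± 0.342. In each of the 6 samples, the share at open lincRNA promoters lay between the distal and the coding value for 9 of the 12 motifs. The other 3 were NFY and NRF1, between in 5 samples, and CTCF, between in 4, whose sites were at 3.27% ± 0.473 of distal peaks. These distal values were added after the other results were known and carry no test. Over whole windows, 19.8% of all 4731 lincRNA windows and 16.2% of all annotated promoter windows held an AP-1 site somewhere in their length, and for ARID3 the shares were 79.0% and 78.1%. A whole window has 1101 bp against 201 bp at a summit, so these shares cannot be set against those at summits.

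**Figure D4:**
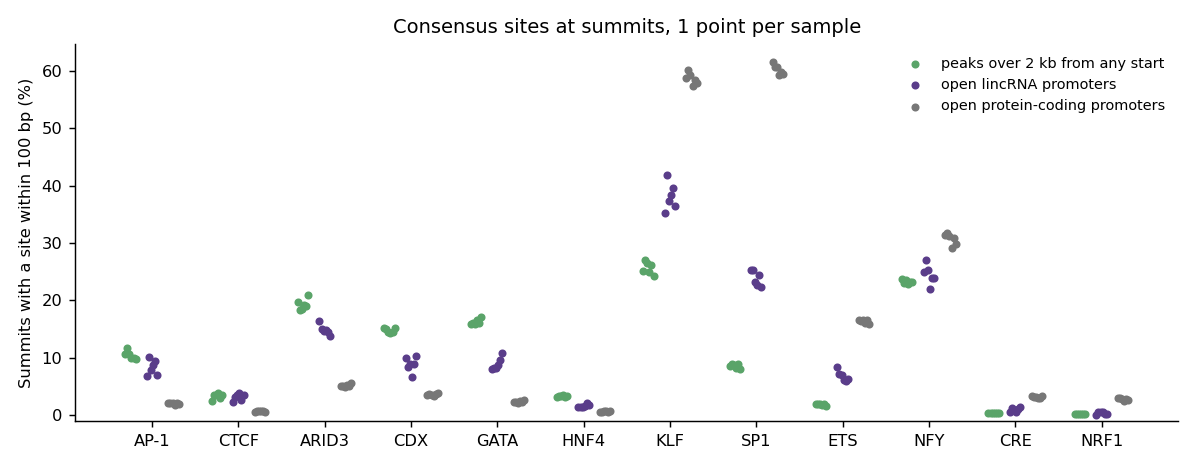
Percentage of summits with a consensus site within 100 bp, with 1 point per sample, for peaks over 2 kb from any start (green), open lincRNA promoters (purple) and open protein-coding promoters (grey). AP-1, CTCF, ARID3, CDX, GATA and HNF4 points of lincRNA promoters lie above those of coding promoters, and KLF, SP1, ETS, NFY, CRE and NRF1 points lie below.

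Motif shares of open lincRNA promoters were then set side by side by genotype, first for the ARID3 site, since Arid3a was the deleted gene. Of these promoters, 15.4% ± 0.843 held it in WT against 14.4% ± 0.484 in cKO crypts (SD, n = 3, exact two-sided permutation p = 0.2). For 4 of the 12 motifs the genotypes did not overlap, with the smallest exact p this design allows, 0.1, and 0.3 after Benjamini-Hochberg adjustment over the 12. GATA and HNF4 sites were at 8.12% and 1.44% in WT against 9.76% and 1.86% in cKO. HNF4 sites were rare, and the closest samples were WT 2, at 1.49% of 404 open promoters, and cKO 1, at 1.67% of 420. The HNF4 separation thus rested on few promoters. ETS and NFY sites were at 7.50% and 25.7% in WT against 6.12% and 23.2% in cKO. Open coding promoters also separated in NFY, with 31.3% to 31.7% in WT and 29.1% to 30.9% in cKO. Distal peaks, described above, separated in GATA, with 15.90% to 16.12% in WT and 16.15% to 17.15% in cKO. ETS and HNF4 overlapped in both of these sets, as did GATA at coding promoters and NFY at distal peaks. No motif difference between genotypes could pass a threshold of 0.05 with 3 samples against 3.

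Of 75 lncRNA names drawn up as known, 29 belonged to members, 7 of them open in all 6 samples, 6 in 1 to 5 and 16 in none. Malat1, an abundant nuclear RNA of splicing speckles, had percentiles of 72.9, 75.8 and 69.1 in WT 1, 2 and 3, against 59.6, 81.9 and 55.6 in cKO 1, 2 and 3, and the genotypes overlapped. Its peak was broad, at 1677 to 1982 bp. Ranked by the −log10 q of the caller instead of fold, it stood at 88.8 to 94.6. Its median summit lay at −876.5 bp from the annotated start, and in windows of 500 bp either side it was open in 0 samples.

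Neat1, the scaffold RNA of paraspeckles, was open in every sample but near the bottom of each list by fold. Its percentile in WT 1, 2 and 3 was 16.5, 3.78 and 6.99, against 3.65, 1.86 and 1.98 for cKO 1, 2 and 3, so every WT sample ranked higher, by 0.131 at the closest, and without WT 1 the mean difference of −6.61 became −2.89. Neat1 was thus among the non-overlapping members counted further on, with a Benjamini-Hochberg adjusted p of 0.629 from limma. Its folds were only 2.55 to 3.61. By −log10 q the same peaks ranked at 60.8 to 75.7, so the Neat1 promoter was near the bottom of the lists by fold and above the middle by significance. The genotypes overlapped by −log10 q, with cKO 1 at 71.6 above WT 2 at 68.7.

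The Snhg genes, hosts of small nucleolar RNAs, varied. Snhg6 had percentiles of 83.8, 89.9 and 92.5 in WT 1, 2 and 3, against 88.3, 92.2 and 91.3 in cKO 1, 2 and 3. Snhg12 was open in 3 of 3 WT samples and in cKO 1 alone, at 63.7 to 85.3. With every transcript start counted it was open in all 6, so the absence of a summit in cKO 2 and cKO 3 held for 1 start of the gene. Snhg20 had no summit in any sample, but was open in 5 with every transcript start counted.

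2900097C17Rik, the mouse Norad gene whose RNA binds Pumilio proteins, had percentiles of 76.0 to 86.3 with a median of 82.0. Lockd, which lies 8.58 kb from Cdkn1b, a cell cycle inhibitor, had 71.2 to 86.5, and was open in 3 samples in windows of 500 bp either side. Epb41l4aos had 85.9 to 93.6. Dubr was open in 5 samples at 92.1 to 97.7 and missed in cKO 3, where a peak overlapped the window with its summit outside. The known RNAs with open promoters thus spanned nearly the whole range of ranks.

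Among known RNAs with no summit in any list were the imprinted H19 and Meg3, the Hox cluster RNA Hotair, and Rmst, known from the nervous system. These 4 also lacked any overlapping peak in all 6 samples. Carmn and Bvht, named for cardiovascular roles, had no summit either but an overlapping peak in 3 and 2 samples. Mir17hg, host of a microRNA cluster used by proliferating cells, had no summit in the window but an overlapping peak in all 6. Trp53cor1, a p53 target beside Cdkn1a, was open in 3 samples once all transcript starts counted. Mir155hg, host of a microRNA of activated immune cells, was open in cKO 2 alone, and a peak overlapped its window in all 6. A closed call at 1 start is therefore not a closed gene.

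The 10 promoters open in all 6 samples with the highest lowest percentile were Gm42418, 9430037G07Rik, Gm10010, Gm31793, 2900076A07Rik, Gm6712, Gm26611, 2700038G22Rik, BC002059 and Gm20939. Gm42418 stood at 99.98 to 99.99 in every list, with folds of 23.2 to 30.6. RefSeq for GRCm38.p6 gives this locus as a pseudogene copy of 18S ribosomal RNA, and the part that reads from ribosomal gene arrays have in its rank was not tested. The other 9 ranged from 94.6 to 99.9.

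Near-identical copies elsewhere in the genome make some of these ranks uncertain. The 201 bases at the summit had another match of at least 180 bp at 95% identity for 5 of the 10, which were Gm42418, 9430037G07Rik, Gm31793, 2700038G22Rik and Gm20939. Among all lincRNA promoters open in 6 samples the count was 12 of 239 (5.02%), and among coding promoters open in 6 it was 77 of 5556 (1.39%). Of the 13 known RNAs open at least once, 0 had such a copy. Without members that had a copy, the median percentile per sample moved from 51.7 to 50.6 in WT 1 and by less than 2 in the other 5 lists.

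Lineage genes had lincRNA promoters nearby in small numbers. For 4 lists of crypt genes, members were counted by the nearest coding start within 100 kb. Of 8 members near secretory genes 4 were open at least once, of 5 near absorptive genes 3, of 15 near stem and proliferation genes 3, and of 23 near intestinal transcription factors 2. Over all 2911 members within 100 kb of a coding start, 16.5% were open at least once. With so few members, the counts per list are descriptions only.

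Near stem and proliferation genes, Pvt1 lies 50.6 kb from Myc, the growth regulator. Its percentiles were 63.3, 75.5 and 83.1 in WT 1, 2 and 3, against 90.3, 73.4 and 74.5 in cKO 1, 2 and 3, with overlap. Gm36548, 71.2 kb from the cell cycle kinase gene Cdk6, was open in 5 samples at 0.807 to 30.6. Gm26735, 10.7 kb from Sox4, was open in 3 samples at 25.1 to 41.8.

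Near secretory genes, Gm26692 lies 36.3 kb from Gfi1, a regulator of secretory fate. Its percentiles were 22.2, 78.6 and 63.5 in WT 1, 2 and 3, against 81.8, 64.4 and 83.5 in cKO 1, 2 and 3, so WT 1 stood far below the other 5. Gm15458, 6.27 kb from Spdef, the goblet cell factor, was open in WT 2 and WT 3 at 8.64 and 4.22 and in cKO 1, 2 and 3 at 24.4, 35.1 and 29.6. It had no summit in WT 1, so it was not in the test of ranks. 9030622O22Rik, 5.26 kb from Foxa2, was open in 3 samples at 19.7 to 44.3, and 4930428O21Rik, also near Gfi1, was open in WT 1 alone.

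Near absorptive genes, Gm48633 lies 27.6 kb from Apob, the lipoprotein scaffold of enterocytes. It was open in WT 3 at 25.3 and in cKO 1, 2 and 3 at 51.8, 19.6 and 36.5. Gm13565, 28.9 kb from the brush border peptidase gene Dpp4, was open in 2 samples of each genotype at 32.6 to 61.4. Gm28231, near Nt5e, was open in WT 3 alone.

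Near intestinal transcription factor genes, Gm12506 lies 72.7 kb from Klf4, a factor of differentiated cells. Its percentiles were 29.0, 51.3 and 41.8 in WT 1, 2 and 3, against 51.3, 48.3 and 52.2 in cKO 1, 2 and 3. 9030404E10Rik, 24.9 kb from the Notch target Hes1, was open in 3 of 3 WT samples and in 1 cKO sample, at 52.8 to 64.02. Its open cKO sample, cKO 2, ranked below all 3 WT samples, at 52.8 against 54.1 to 64.02. Neither this nor the number of samples that passed the peak call was tested.

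Openness by genotype was counted next. Of the 592 lincRNA promoters open at least once, 0 were open throughout cKO and nowhere in WT, and 2 (0.338%) showed the reverse, 3 of 3 WT against 0 of 3 cKO samples. Over all 13677 annotated promoters open at least once, the shares were 0.307% and 0.468%, so the members did not stand far from the background. A further 16 (2.70%) were open in 2 cKO and no WT samples, and 17 (2.87%) in 2 WT and no cKO samples. Over all annotated promoters open at least once, these shares were 1.67% and 2.04%, and the difference was not tested.

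The pair open in WT alone were B530045E10Rik, 33.2 kb from Dusp6, and 1810008I18Rik, 58.6 kb from Pcsk6. B530045E10Rik had percentiles of 48.6, 47.7 and 35.4 in WT 1, 2 and 3. In cKO 1 and cKO 3 a summit lay 14 bp beyond the downstream edge of its window, with folds of 6.91 and 6.61, and in cKO 2 the nearest summit was 28383 bp upstream. 1810008I18Rik had 55.8, 4.17 and 19.04 in WT 1, 2 and 3, and in cKO 1, 2 and 3 the nearest summits lay 377, 57 and 567 bp beyond its window. WT 2 and WT 3 also had a summit beyond it, at 368 and 423 bp, beside the weaker one inside. A peak overlapped the window of 1810008I18Rik in 3 of 3 cKO samples and that of B530045E10Rik in 2 of 3. Counting any overlap, 0 lincRNA promoters were open in WT alone and 2 in cKO alone.

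Among the 239 lincRNA promoters open in all 6 samples, ranks of the genotypes were compared one by one. The percentile of every cKO sample was above every WT sample at 15 (6.28%), and below at 14 (5.86%). Over all 7116 annotated promoters open in all 6, these shares were 2.80% and 9.98%. Ranked by −log10 q, the shares were 6.69% and 3.35% for the members and 5.76% and 3.53% for all 7116, so the direction of the background depended on the ranking. The difference between members and background was not tested. The median difference, cKO minus WT, was 0.802 percentile points for the 239 and −1.51 for all 7116. The median of the members was −1.22 without WT 1 and −0.759 with lists of equal length, so its sign was not stable. WT 1 was the lowest of the 6 samples at 99 of the 239 members (41.4%) and at 25.4% of all 7116.

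A model over all 7116 promoters was fitted next. With limma on normal scores of the percentiles and Benjamini-Hochberg adjustment, 0 of 239 members and 0% of all promoters passed the threshold of 0.05, and the smallest adjusted p of a member was 0.629. At an unadjusted p below 0.05 stood 20 of the 239 members (8.37%) against a background of 7.28%. On simulated data for this comparison, with 7116 promoters, 44.7% of shifts of 1 unit on the normal score scale were found and 0% of shifts of 0.5. Shifts of the smaller size were thus not detectable here.

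The 5 members with the largest rise and the 5 with the largest fall, non-overlapping by fold, are described without a test, as no adjusted p passed. Gm5493 had percentiles of 22.9, 66.9 and 75.8 in WT 1, 2 and 3, against 92.3, 76.1 and 81.7 in cKO 1, 2 and 3. Its mean difference of 28.2 rested largely on WT 1, since WT averaged 71.4 without it against 83.4 in cKO. It lies 122 kb from Zfp945, a zinc finger gene.

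1700003M07Rik had 13.9, 31.2 and 50.6 in WT 1, 2 and 3, against 53.7, 61.0 and 58.8 in cKO 1, 2 and 3, a mean difference of 25.9. Without WT 1 it was 16.9. 9030625G05Rik, near Rpl17, differed by 23.8, or 12.7 without WT 1. Gm35611, near Cebpg, differed by 23.4. AC141471.3, near Cxxc5, differed by 19.998. In 4 of these 5, the closest WT and cKO samples were 0.313 to 3.07 percentile points apart, and in 9030625G05Rik 11.6. Ranked by −log10 q, the genotypes stayed apart at Gm5493, 9030625G05Rik and Gm35611 but overlapped at 1700003M07Rik and AC141471.3.

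In the other direction, Gm45866 had 43.9, 61.1 and 49.9 in WT 1, 2 and 3, against 25.01, 33.9 and 21.97 in cKO 1, 2 and 3. This was the widest separation of the fall, with WT at 51.6 ± 8.74 and cKO at 27.0 ± 6.20 (SD, n = 3). Gm16046 had 79.3, 67.4 and 74.97 in WT 1, 2 and 3, against 62.6, 61.3 and 42.7 in cKO 1, 2 and 3. Its mean difference of −18.4 became −11.95 without cKO 3. Gm32540, 142 kb from Irs2, fell by 16.4 points on average, Gm47552, near Egln3, by 16.2 and Gm43661, near Vps37b, by 15.4. The difference of Gm43661 was −10.2 without cKO 2.

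**Figure D5:**
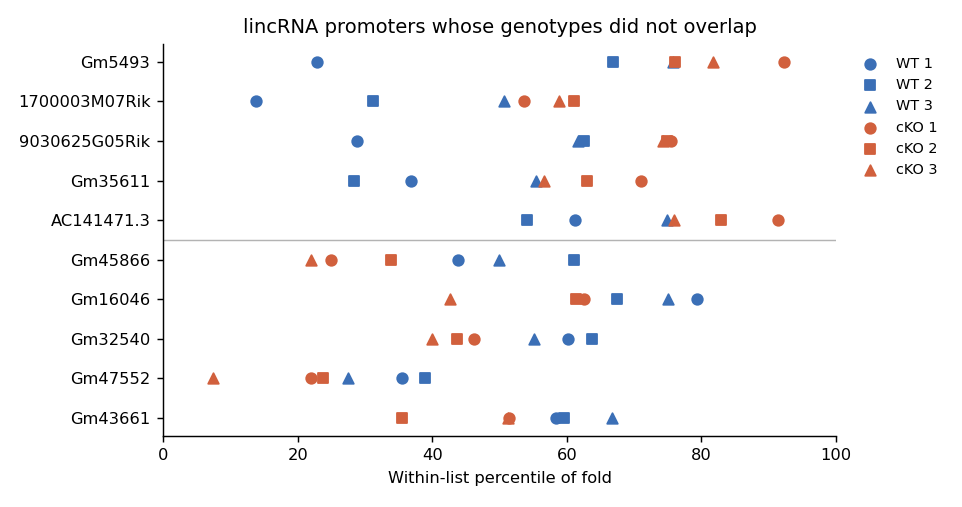
Within-list percentile of fold at the 5 lincRNA promoters with the largest non-overlapping rise in cKO (above the line) and the 5 with the largest fall (below it), with 1 symbol per sample (WT blue, cKO orange). At Gm5493 the WT 1 point, at 22.9, lies far below the other 5, and at Gm45866 the WT points lie at 43.9 to 61.1 and the cKO points at 21.97 to 33.9.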

How the data were processed

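ATAC-seq peaks of 6 samples were used, 1 list per sample, grouped by the genotype in the labels. Per the methods and labels, the authors ran the nf-core ATAC-seq pipeline on GRCm38, removed blacklisted regions and called narrow peaks per sample with MACS2. Per the deposited columns, fold is a ratio of summit pileup over local background, and the deposited −log10 p and −log10 q come from the same background model. The deposited score is derived from the −log10 q, and it was not analysed. No pooled calls were used.

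Peaks on chromosomes 1 to 19 were kept. Genes came from GENCODE M21 and sequence from GRCm38.p6, and peak ends lay within the reference lengths of all 19 chromosomes. The summit was the peak start plus the deposited offset, coordinates are 1-based, and where several summits fell in a window the one of largest fold was taken. Peaks on X and Y were not used here. The members and gene lists were chosen with earlier results of these data known.

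One value per sample was compared by exact permutation or sign-flip tests. The percentiles were turned into normal scores and fitted with limma 3.58.1 in R 4.3.3 over all promoters open in 6 samples, and the fit was tested on simulated data. Copies were sought with blastn 2.17.0 in chromosomes 1 to 19, X and Y. Python 3.11.15, numpy 2.4.6, pandas 2.3.3, scipy 1.17.1 and matplotlib 3.10.9 were used. Precision is limited by 3 samples per genotype and by peak calling. p-values measure the spread between these samples, which may be technical where they are not separate animals.

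Named promoters were known lncRNAs, the 10 with the highest lowest percentile, those open in 3 samples of one genotype and 0 of the other, those within 100 kb of listed lineage genes, and the 5 with the largest non-overlapping difference in each direction. Alternatives were lists of equal length (39773 peaks), a −log10 q of 5 or more, all transcript starts, a distance of 5 kb, any peak overlap, windows of 500 bp either side, ranks by −log10 q, leaving out each sample, and the replicate number as a block. For the rank model, promoters open in at least 2 samples of each genotype were also fitted, and motifs were also sought in the whole window.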

Additional observations from a re-analysis of the deposited data

How the results depend on the processing

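The class differences kept their direction under all alternatives. The gap in open share between coding and lincRNA promoters was 29.8 to 30.3 percentage points when each sample was left out, that in median percentile 27.5 to 28.9, and that in GC content 10.1 to 10.3. With 5 samples the exact sign-flip test cannot go below p = 0.0625, so those 3 results and the 12 motif differences, of which 0 then passed, lost their call by construction. Of the 3 genotype differences, that in summits per 1000 peaks was negative under every alternative, from −0.711 to −0.0653, with no exact p below 0.2, and the other 2 changed sign. The difference in open share was −0.296 percentage points with lists of equal length and −0.402 to 0.433 when a sample was left out, and that in median percentile −2.19 to 1.74.

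Members open throughout cKO and nowhere in WT numbered 3 at −log10 q of at least 5, 1 with lists of equal length, 2 with any overlap, 3 with windows of 500 bp either side and 2 to 10 when a sample was left out. The reverse numbered 1, 2, 0 and 4 under the same settings, 0 with all transcript starts, and 4 to 9 when a sample was left out. Members open in all 6 samples rose to 394 with any overlap. Counts of non-overlapping ranks, an alternative added after the data were seen, were 19 to 48 higher in cKO and 18 to 42 higher in WT when a sample was left out, since fewer samples need to separate, and 8 were higher in WT when ranked by −log10 q. With a sample left out, the member shares were 7.14% to 19.4% higher in cKO and 7.32% to 17.004% higher in WT. Over all promoters open in every remaining sample, they were 4.32% to 9.33% and 12.1% to 36.6%. The largest value of each range came without cKO 2. The difference between members and this background was not tested. The limma model called 0 members under each alternative run.

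In the replicate block, the paired differences were 0.0705 percentage points in open share, −0.508 summits per 1000 peaks and 0.168 in median percentile, with exact sign-flip p of 1, 0.5 and 1, and limma with the block called 0 members. Deviations of same-numbered samples correlated at −0.358, −0.0354 and 0.158. Those of WT and cKO samples with different numbers ran from −0.419 to 0.391. With so few pairs, the correlations showed no pairing by number but cannot decide whether there was any.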

Other observations

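Other noncoding gene classes gave values close to or below those of lincRNA promoters. Under the same distance rule, promoters of antisense genes were open in 8.50% ± 1.02 of cases per sample (SD, n = 6), and 81 of 1665 (4.86%) were open in all 6 samples. Genes annotated as TEC, which await experimental evidence, had 48 of 2779 promoters (1.73%) open in all 6. Neither class was compared with lincRNA promoters by a test.

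The share of lincRNA promoters open in all 6 samples varied among chromosomes, from 3 of 243 (1.23%) on chromosome 14 to 22 of 208 (10.6%) on chromosome 17, where Gm42418, Gm6712, BC002059, Gm20939, Gm5493 and Gm16046 lie. Mir9-3hg and Mir17hg were among 17 CpG-rich lincRNA windows with no summit in any sample. With all transcript starts counted, Mir9-3hg was open in 2 samples and Mir17hg in 0.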
